A study of Mus musculus with 10 samples.

Results

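The tumor necrosis factor (TNF) superfamily comprises the TNF-like ligands and their receptors. It was followed here in tumor-draining lymph nodes (TDLNs) of mice treated with microwave ablation (MWA), with or without the glycolysis inhibitor 2-deoxy-D-glucose (2DG). Its members were every gene whose symbol starts with Tnfsf or Tnfrsf, together with Tnf, Lta, Ltb, Ltbr, Cd27, Cd40, Cd40lg, Cd70, Fas, Fasl, Ngfr and Eda2r. That rule, which uses names and no measured value, gave 45 of the 33585 genes in the files, of which 18 were ligands, 26 were receptors and 1, Tnfsf13os, was an RNA that overlaps the ligand gene Tnfsf13.

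TNF-superfamily ligands are mostly trimers on the cell surface that can be shed, and they bind receptors with cysteine-rich repeats. Receptors without a death domain recruit TRAF adaptors and switch on NF-kB, whereas receptors with a death domain can also start apoptosis. In lymph nodes the family is known for 3 tasks: lymphotoxin and its receptor build and maintain the node, receptors such as CD27, OX40, 4-1BB and CD40 give costimulation to T and B cells, and BAFF and APRIL keep B cells and plasma cells alive.

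The 10 libraries came from 10 female wild-type BALB/c mice, aged 6 weeks when the experiments began, each carrying an orthotopic tumor of 4T1, a mouse mammary carcinoma line, in the fourth mammary fat pad. All tumors were ablated by MWA, and the mice then received intraperitoneal injections of PBS (the MWA + PBS group, named MWA in the labels, n = 5) or of 2DG (the MWA + 2DG group, n = 5), with TDLNs collected on day 15. Since both groups had tumors and ablation, the comparison concerns 2DG after ablation and has neither an untreated nor a 2DG-alone group. The replicates are separate mice, and each value is FPKM, a level divided by transcript length and by library size, so that levels of different genes can be set side by side.

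Across the series the summed FPKM per library was 312143 to 359984, and read depth is unknown because FPKM holds no counts. The nodes held abundant lymphocyte transcripts, with 975 to 1660 FPKM summed over 18 T cell markers and 1788 to 2168 FPKM over 13 B cell markers, and little epithelial signal, with 2.24 to 12.4 FPKM over 8 markers. The first principal component, which took 36.4% of the variance, set replicates 1 and 2 of both groups apart from replicates 3 to 5. Endothelial markers summed to 550 to 905 FPKM in replicates 1 and 2 and to 244 to 454 FPKM in replicates 3 to 5, while liver transcripts summed to 24.5 to 29.8 FPKM and 89.6 to 218 FPKM, respectively. Most of the endothelial sum came from 1 gene, Glycam1. Its mean was 440 FPKM of a mean sum of 533 FPKM with PBS, and 388 FPKM of 480 FPKM with 2DG. What the replicate sets are is not given in the labels, and because both groups have both sets, values are also given within them where they change a result. In whole nodes, fewer cells of a type and less RNA per cell cannot be told apart.

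The superfamily spanned more than 3 orders of magnitude. Lymphotoxin beta (Ltb), the membrane anchor of the lymphotoxin heterotrimer, was the highest ligand at 320 ± 34.6 FPKM (SD over 10 libraries), and the lowest was Tnfsf18, the ligand of GITR, at 0.184 FPKM. After Ltb came Lta at 21.5 FPKM, Tnf at 13.2 FPKM, Tnfsf8 at 9.12 FPKM, Tnfsf11 at 7.38 FPKM and Tnfsf10 at 5.61 FPKM. Among receptors the highest levels were those of Cd27 (41.4 FPKM), Tnfrsf13b (39.3 FPKM), Tnfrsf13c (32.2 FPKM), Cd40 (26.5 FPKM), Tnfrsf1b (25.5 FPKM) and Tnfrsf1a (20.1 FPKM). In the order of levels, only 2 pairs of neighbours had ranges that did not overlap over the 10 libraries: Ltb above Lta among ligands, and Tnfrsf9 above Tnfrsf22 among receptors. Every other step in the order had overlapping ranges.

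**Figure D1:**
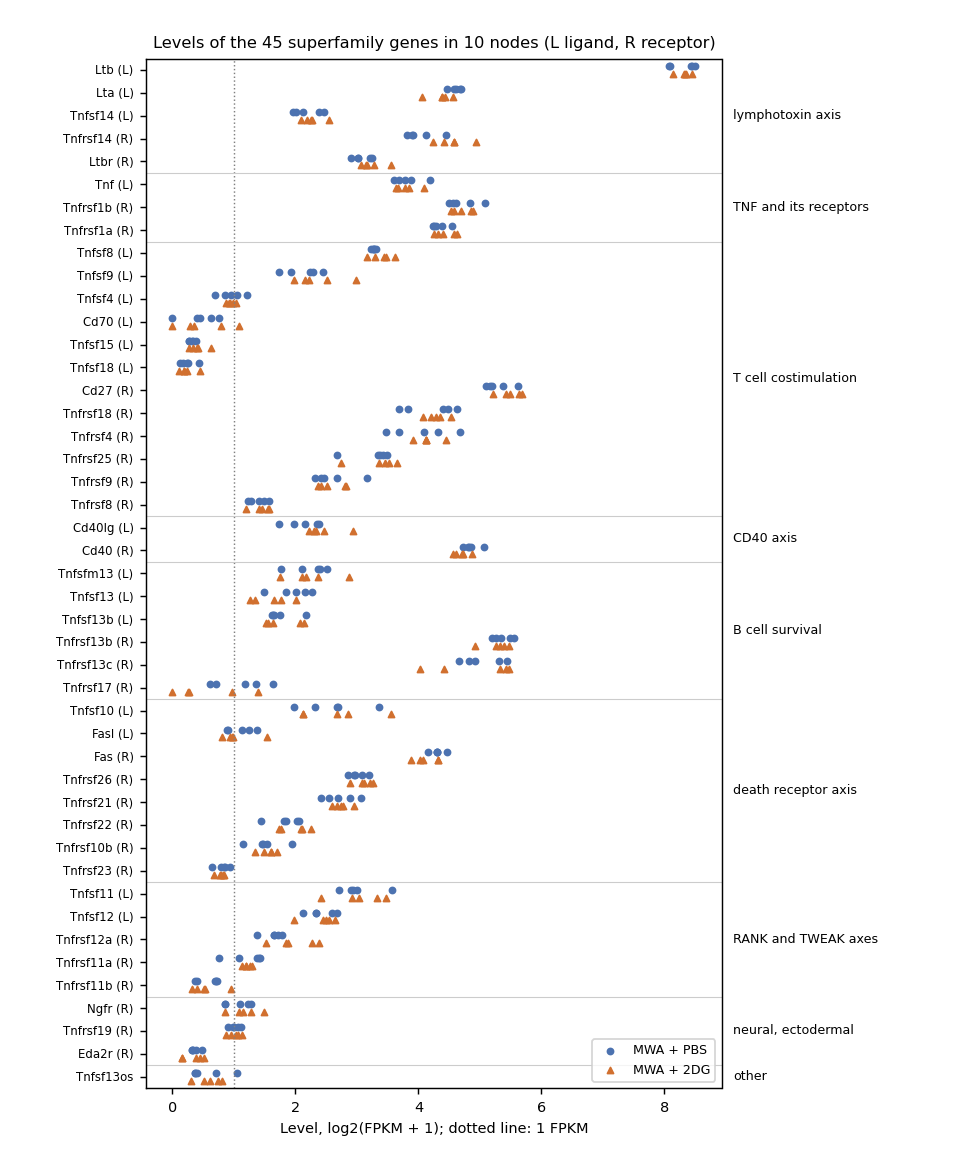
Level of each of the 45 genes in each library, as log2(FPKM + 1) on the horizontal axis, with MWA + PBS libraries as circles and MWA + 2DG libraries as triangles, ordered by axis. Ltb lies far to the right of all others, and most genes show circles and triangles over the same range.

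Of the 45 genes, 36 averaged 1 FPKM or more over the 10 libraries and were tested (14 ligands and 22 receptors) with limma on log2(FPKM + 1) over all 13334 genes that passed that filter. A gene was called by the rule named in the study's methods, P below 0.05 with a log fold change beyond 0.25 in either direction, read here as an unadjusted P and a log2 scale. By that rule 2 of the 36 rose in the MWA + 2DG group, Tnfrsf14 and Tnfrsf12a, beside 0.952% of all tested genes, and 0 of the 36 fell, beside 1.87% of all tested genes. An unadjusted P below 0.05 was found for 3 of the 36, the called pair and Lta, beside 4.25% of all tested genes. With limma and Benjamini-Hochberg adjustment over all 13334 genes, 0 members had an adjusted p below 0.05 (0% of all tested genes), and the smallest adjusted p of a member was 0.995. An exact permutation test of each gene gave an unadjusted p below 0.05 for 2 of the 36 members and for 594 of the 13334 genes, and an exact Wilcoxon test for 2 and 416, respectively. Groups that did not overlap were found for 0 members, beside 0.802% of all tested genes. The log2 fold change was within 0.25 of 0 for 32 of the 36 members (88.9%), beside 91.9% of all tested genes. It was positive for 25 of the 36 (69.4%), beside 52.6% of all tested genes, and its median was 0.03 for the members and 0.0074 for all tested genes. The sign of the log2 fold change was the same in both sets of replicates for 19 of the 36 members. This was not counted over all tested genes, so the members cannot be compared with other genes in this respect.

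**Figure D2:**
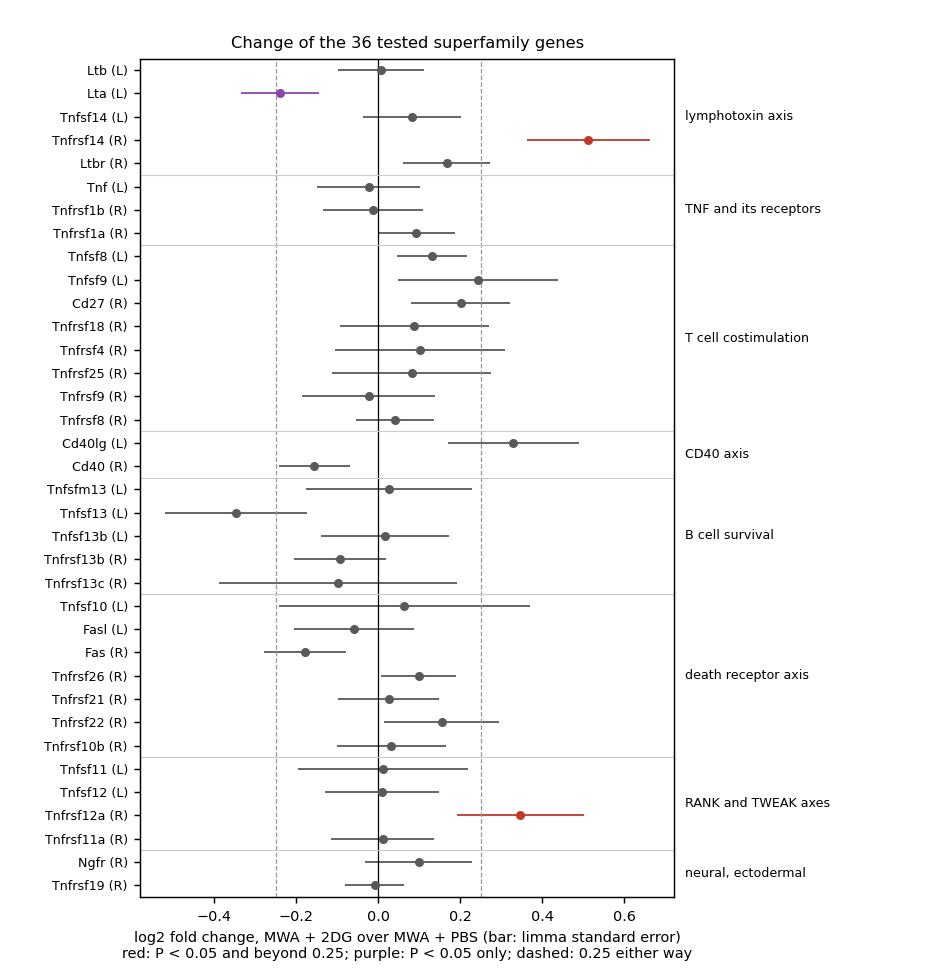
Log2 fold change of MWA + 2DG over MWA + PBS for the 36 tested genes, with limma standard errors as bars, the called genes in red and Lta, with an unadjusted P below 0.05 alone, in purple. Tnfrsf14 at 0.51 has the highest value and Tnfsf13 at -0.35 the lowest, and 32 of the 36 points lie between the dashed lines.

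The lymphotoxin axis held the called gene with the highest fold change. Tnfrsf14 (HVEM) is a receptor of LIGHT, the product of Tnfsf14, and of lymphotoxin alpha, and it also engages the inhibitory immunoglobulin-family receptor BTLA on lymphocytes. Its level was 13.1, 14.00, 16.3, 20.7 and 13.9 FPKM in MWA + PBS replicates 1 to 5 and 22.9, 17.8, 29.8, 20.2 and 22.95 FPKM in MWA + 2DG replicates 1 to 5. All 5 MWA + 2DG libraries were above the MWA + PBS mean and 3 were above every MWA + PBS library, the overlap resting on MWA + PBS replicate 4. Group means were 15.6 ± 3.1 FPKM and 22.7 ± 4.47 FPKM (SD, n = 5 each), a 1.46-fold difference. The log2 fold change was 0.51 ± 0.15 (SE; limma, P = 0.00574, adjusted p = 0.995; exact permutation p = 0.0238, two-sided). The call was kept without any 1 of the 10 libraries, with a log2 fold change between 0.41 and 0.61, and the values were 0.54 in replicates 1 and 2 alone and 0.49 in replicates 3 to 5 alone.

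Beside Tnfrsf14, most T cell markers had log2 fold changes above 0 and most B cell markers below 0. All 18 T cell markers had a positive log2 fold change and 2 were called higher, with summed levels of 975 to 1660 FPKM in MWA + PBS nodes and 1057 to 1606 FPKM in MWA + 2DG nodes (exact permutation p = 0.413). The 12 naive T cell markers, 3 of them called higher and 1, Tcf7, also on the T cell list, summed to 469 to 532 FPKM and 520 to 642 FPKM (exact permutation p = 0.0159). Of the 13 B cell markers 1 had a positive log2 fold change and 0 were called (1940 to 2168 FPKM against 1788 to 2052 FPKM, exact permutation p = 0.111). Measured against the mean log2 level of the T cell markers in the same library, the Tnfrsf14 difference was 0.34 (exact permutation p = 0.198), and against that of the B cell markers it was 0.61 (exact permutation p = 0.0159). Sums of germinal centre B cell, cell division and neutrophil markers were lower beside Tnfrsf14 and Lta. Germinal centre B cell markers, 7 of 8 of them called lower, summed to 149 to 261 FPKM with PBS and 94.6 to 161 FPKM with 2DG (exact permutation p = 0.0317), and 14 cell division genes, 9 of them called lower, to 217 to 285 FPKM and 147 to 242 FPKM (exact permutation p = 0.0238). Of 10 neutrophil markers 6 were tested and 2 were called lower, and the sums were 26.0 to 101 FPKM and 14.0 to 27.4 FPKM (exact permutation p = 0.0238). Sums of the remaining cell type lists had exact permutation p values from 0.0952 (plasma cells) to 0.921 (regulatory T cells). The part of cell makeup in the results of Tnfrsf14 and Lta was not tested beyond these values. The marker lists were chosen with earlier results of these data known. The permutation p values of their sums were not adjusted for the number of lists and are not an independent test. Neither are those of differences measured against the T cell or B cell markers, here or below.

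Lta encodes lymphotoxin alpha, which forms soluble homotrimers that bind the TNF receptors and joins lymphotoxin beta on the cell surface. Its level was 23.3, 24.6, 22.8, 24.9 and 21.1 FPKM in MWA + PBS replicates 1 to 5 and 19.99, 22.6, 19.8, 20.5 and 15.7 FPKM in MWA + 2DG replicates 1 to 5. Every MWA + 2DG library was below the MWA + PBS mean and 4 of the 5 were below every MWA + PBS library, while replicate 2 overlapped. The log2 fold change was -0.24 ± 0.09 (SE; limma, P = 0.0286, adjusted p = 0.995; exact permutation p = 0.0159), just inside the fold threshold, so Lta was not called. The rule did call it without MWA + PBS replicate 5 (-0.27), MWA + 2DG replicate 2 (-0.29) or MWA + 2DG replicate 4 (-0.26). The P threshold of the rule was missed without MWA + PBS replicates 2 (-0.22) or 4 (-0.22) or MWA + 2DG replicate 5 (-0.16). With libraries rescaled to a common total (-0.18) that threshold was also missed. Against the T cell markers the difference was -0.41 (exact permutation p = 0.00794, the smallest that 5 against 5 allows), and against the B cell markers -0.14 (exact permutation p = 0.0159). The mean log2 level of the T cell markers itself differed by 0.17 between the groups, and that of the B cell markers by -0.10. These shifts enter both differences.

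Ltb and Tnf are the neighbours of Lta on chromosome 17, and Ltb was far above both of them. Ltb was at 346, 350.4, 272, 269 and 362 FPKM in MWA + PBS replicates 1 to 5 and 319, 349, 322, 327 and 280.1 FPKM in MWA + 2DG replicates 1 to 5. The MWA + 2DG values lay inside the range of the MWA + PBS values (log2 fold change 0.01 ± 0.11, exact permutation p = 1). In the RefSeq promoter table (GRCm38.p6) the start of Ltb lies 7500 bases from that of Tnf, and the start of Tnf 3344 bases from that of Lta. The 250 bases before each start are shown because the 3 genes lie next to each other and Ltb had a mean level over 10-fold above both others. They are given 5′ to 3′ on each gene's strand, with a match to the NF-kB consensus in capitals.
Ltb, chr17:35194257-35194506, plus strand: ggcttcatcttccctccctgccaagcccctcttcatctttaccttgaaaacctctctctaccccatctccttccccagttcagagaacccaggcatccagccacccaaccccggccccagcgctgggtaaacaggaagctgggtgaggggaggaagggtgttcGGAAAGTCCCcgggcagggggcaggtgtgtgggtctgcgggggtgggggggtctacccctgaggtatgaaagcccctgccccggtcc
Tnf, chr17:35202008-35202257, minus strand: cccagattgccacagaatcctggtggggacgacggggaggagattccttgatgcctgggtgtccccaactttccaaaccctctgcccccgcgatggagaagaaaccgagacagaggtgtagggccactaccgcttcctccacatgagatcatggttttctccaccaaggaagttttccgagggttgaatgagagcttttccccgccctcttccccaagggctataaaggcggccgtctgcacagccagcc
Lta, chr17:35205352-35205601, minus strand: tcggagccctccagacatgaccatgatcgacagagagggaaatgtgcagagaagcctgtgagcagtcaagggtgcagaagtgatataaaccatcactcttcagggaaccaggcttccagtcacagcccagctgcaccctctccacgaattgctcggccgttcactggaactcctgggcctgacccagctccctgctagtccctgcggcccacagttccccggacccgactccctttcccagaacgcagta
The Ltb window held the NF-kB match GGAAAGTCCC at positions -87 to -78 from its start, and the Tnf and Lta windows held no match to this consensus. The promoter of the called receptor Tnfrsf14 held no match to any of the motifs searched and is given for comparison with them.
Tnfrsf14, chr4:154928078-154928327, minus strand: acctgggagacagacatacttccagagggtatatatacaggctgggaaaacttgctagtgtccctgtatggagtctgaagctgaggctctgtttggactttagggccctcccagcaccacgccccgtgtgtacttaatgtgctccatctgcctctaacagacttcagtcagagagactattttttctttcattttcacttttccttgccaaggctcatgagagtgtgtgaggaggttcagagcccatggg
Promoters were found for 34 of the 45 members, 38 windows in all. On either strand the NF-kB consensus was found in 7.89% of them (Ltb, Tnfrsf8 and Tnfrsf9) and in 3.9% of all 32851 windows of the same length, the AP-1 motif TGANTCA in 15.8% (Fas, Tnfrsf8, Tnfrsf9, Tnfsf13, Tnfsf13b and Tnfsf14) and 6.75%, and the cAMP response element TGACGTCA in 0% and 1.55%. Neither of the last pair of motifs can contain the other. These are counts of letters, with no measurement of binding.

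The remaining members of the axis did not pass the test. Ltbr, the receptor through which lymphotoxin maintains stromal and follicular dendritic cells, was at 6.45, 8.44, 7.13, 7.09 and 8.26 FPKM in MWA + PBS nodes and 8.75, 7.89, 7.96, 7.37 and 10.8 FPKM in MWA + 2DG nodes (log2 fold change 0.17 ± 0.11, exact permutation p = 0.175), the highest library being MWA + 2DG replicate 5. Tnfsf14 had a log2 fold change of 0.08 ± 0.12.

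**Figure D3:**
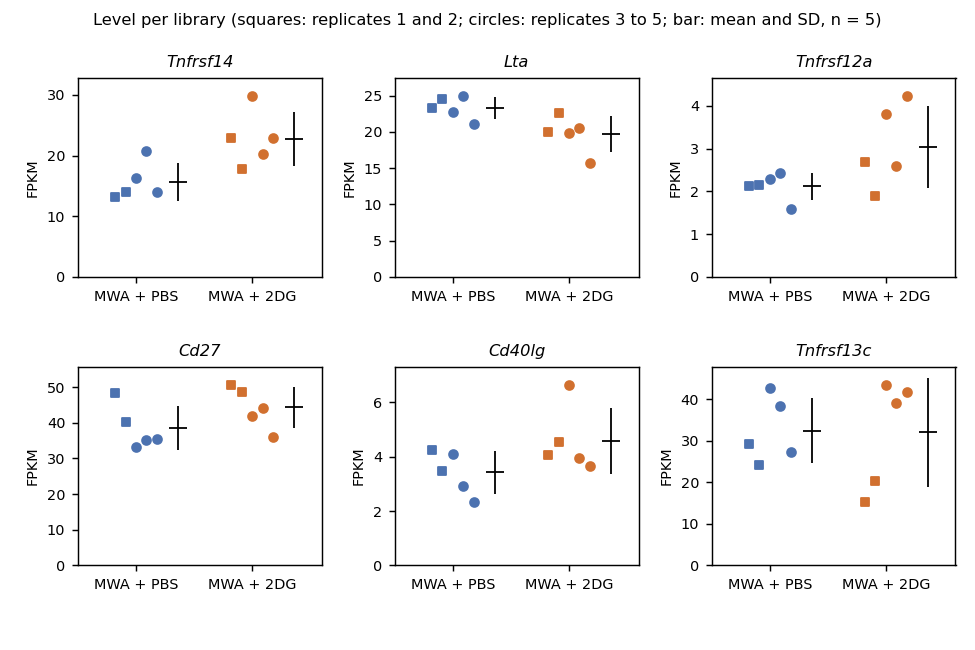
FPKM of Tnfrsf14, Lta, Tnfrsf12a, Cd27, Cd40lg and Tnfrsf13c in each library by group, with replicates 1 and 2 as squares, replicates 3 to 5 as circles and the mean with SD (n = 5) beside them. For Tnfrsf14 all MWA + 2DG points are above the MWA + PBS mean, for Lta all are below it, and for Tnfrsf13c the squares lie below the circles of the MWA + 2DG group.

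TNF and its receptors did not differ between the groups beyond the spread of the mice. Tnf, the inflammatory cytokine that names the family, was at 11.1, 11.8, 13.7, 17.3 and 12.8 FPKM in MWA + PBS replicates 1 to 5 and 12.8, 13.4, 11.4, 11.6 and 16.05 FPKM in MWA + 2DG replicates 1 to 5. Its highest libraries were MWA + PBS replicate 4 and MWA + 2DG replicate 5, and its log2 fold change was -0.02 ± 0.13 (exact permutation p = 0.81). Tnfrsf1a, the death-domain receptor of most cells, had 0.09 ± 0.09, and Tnfrsf1b, the second TNF receptor, -0.01 ± 0.12 on the same log2 scale.

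Receptors that costimulate T cells ranged from Cd27 at a mean of 41.4 FPKM to Tnfrsf8 at 1.68 FPKM, and their ligands were mostly low. Of 12 genes 8 were tested, 7 of them with a positive log2 fold change and 0 called, and 4 ligands (Tnfsf4, Cd70, Tnfsf15 and Tnfsf18) had means below 1 FPKM. Cd27, a receptor of naive and memory T cells that supports survival after priming, was at 48.3, 40.3, 33.2, 35.05 and 35.5 FPKM in MWA + PBS replicates 1 to 5 and 50.7, 48.7, 41.9, 44.03 and 36.1 FPKM in MWA + 2DG replicates 1 to 5. The MWA + 2DG values were above the MWA + PBS mean in 4 of 5 libraries, and in both groups replicates 1 and 2 were the highest. Its log2 fold change was 0.20 ± 0.12 (exact permutation p = 0.143). The rule called it without MWA + PBS replicate 1 (0.29) or MWA + 2DG replicate 5 (0.27). Against the T cell markers the difference was 0.03 (exact permutation p = 0.611), and against the B cell markers 0.30 (exact permutation p = 0.0397). The list of T cell markers did not hold Cd27 itself. Cd70, the ligand of CD27 on activated lymphocytes and dendritic cells, was at 0.544, 0.692, 0, 0.315 and 0.36 FPKM in MWA + PBS nodes and 1.12, 0, 0.73, 0.213 and 0.279 FPKM in MWA + 2DG nodes, and was thus listed at 0 in 1 library of each.

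Tnfrsf4 (OX40), a receptor induced on activated T cells and high on regulatory T cells, was at 24.5, 18.96, 11.8, 10.1 and 16.1 FPKM in MWA + PBS replicates 1 to 5 and 20.96, 16.5, 16.5, 14.00 and 16.5 FPKM in MWA + 2DG replicates 1 to 5. The MWA + 2DG values lay inside the MWA + PBS range (log2 fold change 0.10 ± 0.21, exact permutation p = 0.81). The 8 regulatory T cell markers, summed, were likewise lowest in MWA + PBS replicate 4 (37.8 FPKM) and highest in MWA + PBS replicate 1 (76.4 FPKM). This was not particular to them. Sums of the T cell list (975 and 1660 FPKM) and of the dendritic cell list (151 and 303 FPKM) were lowest and highest in the same libraries. Its ligand Tnfsf4 was at 1.32, 0.806, 0.925, 0.621 and 1.08 FPKM and 0.897, 0.969, 0.922, 0.834 and 1.04 FPKM in the respective groups, below the filter. Tnfrsf18 (GITR), another receptor high on regulatory T cells, had a log2 fold change of 0.09 ± 0.18.

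Tnfrsf9 (4-1BB), induced on T cells by antigen, was at 7.98, 5.4, 4.33, 3.997 and 4.55 FPKM in MWA + PBS replicates 1 to 5 and 5.999, 4.69, 4.35, 4.18 and 6.09 FPKM in MWA + 2DG replicates 1 to 5. The highest of the 10 was MWA + PBS replicate 1, and the log2 fold change was -0.02 ± 0.16 (exact permutation p = 0.881). Its ligand Tnfsf9 was at 4.46, 2.82, 3.71, 3.88 and 2.31 FPKM and 4.72, 3.66, 6.89, 3.48 and 2.93 FPKM, with MWA + 2DG replicate 3 the highest (log2 fold change 0.24 ± 0.19, exact permutation p = 0.325). Tnfsf8, the CD30 ligand, was the most even member of the MWA + PBS group at 8.57, 8.39, 8.67, 8.88 and 8.65 FPKM, against 10.1, 9.86, 8.83, 7.99 and 11.3 FPKM in MWA + 2DG nodes. In the MWA + 2DG group 3 libraries were above every MWA + PBS library and replicate 4 was the lowest of all (log2 fold change 0.13 ± 0.09, exact permutation p = 0.135). Tnfrsf8 (CD30) and Tnfrsf25 (DR3) had log2 fold changes of 0.04 ± 0.10 and 0.08 ± 0.19.

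The CD40 axis, by which helper T cells license B cells and dendritic cells, had its ligand and receptor on opposite sides of 0, neither past the test. Cd40lg, carried mainly by activated CD4+ T cells, was at 4.25, 3.48, 4.11, 2.92 and 2.33 FPKM in MWA + PBS replicates 1 to 5 and 4.05, 4.53, 6.65, 3.94 and 3.66 FPKM in MWA + 2DG replicates 1 to 5. All 5 MWA + 2DG libraries were above the MWA + PBS mean, and 3 of them lay within the MWA + PBS range (log2 fold change 0.33 ± 0.16; exact permutation p = 0.111). The rule called it without MWA + PBS replicate 1 (0.40), MWA + PBS replicate 3 (0.39) or MWA + 2DG replicate 5 (0.39), and with libraries rescaled to a common total (0.44). The value for Cd40lg was 0.21 without MWA + 2DG replicate 3, 0.13 in replicates 1 and 2 alone and 0.47 in replicates 3 to 5 alone. Cd40 was at 27.8, 27.2, 25.3, 26.9 and 32.7 FPKM and 23.4, 25.5, 25.3, 22.6 and 28.3 FPKM in the respective groups, with 3 MWA + 2DG libraries below every MWA + PBS library (log2 fold change -0.16 ± 0.09, exact permutation p = 0.0952). The ratio of the mean of Cd40 to that of Cd40lg was 8.19 with PBS and 5.47 with 2DG. Relative to the T cell markers the Cd40lg difference was 0.16 (exact permutation p = 0.421), and relative to the B cell markers the Cd40 difference was -0.06 (exact permutation p = 0.563).

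Of the B cell survival genes, none of the 5 tested was called. Tnfsf13b (BAFF), on which mature B cells depend, was at 2.36, 3.53, 2.07, 2.14 and 2.12 FPKM in MWA + PBS replicates 1 to 5 and 3.41, 3.22, 1.93, 2.1 and 1.87 FPKM in MWA + 2DG replicates 1 to 5. The log2 fold change between the groups was 0.02 ± 0.16 (exact permutation p = 0.992). The replicate sets did not overlap, at 2.36 to 3.53 FPKM in replicates 1 and 2 and 1.87 to 2.14 FPKM in replicates 3 to 5. Tnfrsf19 was the other member whose replicate sets did not overlap, and 9.84% of all tested genes behaved so, beside 2 of the 36 members.

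Tnfrsf13c (the BAFF receptor) had the largest coefficient of variation in the MWA + 2DG group of the receptors with a mean above 10 FPKM, 41.1%, while in the MWA + PBS group its 24.1% was below the 35.3% of Tnfrsf4 and the 28.8% of Tnfrsf18. Its level was 29.3, 24.2, 42.6, 38.5 and 27.4 FPKM in MWA + PBS replicates 1 to 5 and 15.3, 20.3, 43.5, 39.1 and 41.8 FPKM in MWA + 2DG replicates 1 to 5. The lowest and the highest of the 10 libraries both belonged to the MWA + 2DG group, and the log2 fold change over all mice was -0.10 ± 0.29 (exact permutation p = 0.976). In replicates 1 and 2 alone the rule called it lower, at -0.57, with 2 mice a group, while in replicates 3 to 5 alone the value was 0.21. The difference between these values was not tested. Tnfrsf13b (TACI), a receptor for both BAFF and APRIL, was steadier at 43.8, 45.9, 37.4, 35.7 and 39.6 FPKM and 37.6, 43.6, 40.9, 38.98 and 29.2 FPKM (log2 fold change -0.09 ± 0.11, exact permutation p = 0.476).

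Tnfsf13 (APRIL), which supports plasma cells, was 1.8 to 3.8 FPKM in MWA + PBS nodes and 1.39 to 3.01 FPKM in MWA + 2DG nodes (log2 fold change -0.35 ± 0.17, exact permutation p = 0.111). With MWA + PBS replicate 1 (-0.46) or MWA + 2DG replicate 2 (-0.45) left out it was called lower, and the log2 fold change was 0.06 in replicates 1 and 2 alone and -0.62 in replicates 3 to 5 alone. Tnfsf12, Tnfsfm13, a transcript that reads from Tnfsf12 into Tnfsf13, Tnfsf13 and Tnfsf13os overlap in 1 locus, so the split of reads among them is uncertain. Tnfsfm13 had a log2 fold change of 0.03 ± 0.20. Tnfrsf17 (BCMA), the receptor of plasma cells, was below the filter at 0.636, 0.522, 1.55, 1.26 and 2.12 FPKM in MWA + PBS replicates 1 to 5 and 1.62, 0.202, 0.19, 0.951 and 0 FPKM in MWA + 2DG replicates 1 to 5, listed at 0 in 1 library (exact permutation p = 0.175). The 5 libraries with the highest Tnfrsf17 were also the 5 with the highest sum of 8 plasma cell markers, at 486 to 842 FPKM. These plasma cell markers, 3 of which were called lower, summed to 331 to 842 FPKM in MWA + PBS nodes and 254 to 523 FPKM in MWA + 2DG nodes (exact permutation p = 0.0952). The part of plasma cells and germinal centre B cells in the values of the B cell survival genes was not tested.

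None of the 7 tested death receptor genes was called. Fas, which triggers apoptosis of activated lymphocytes, was at 16.7, 18.6, 18.8, 20.97 and 18.6 FPKM in MWA + PBS replicates 1 to 5 and 15.9, 18.9, 18.9, 15.2 and 13.7 FPKM in MWA + 2DG replicates 1 to 5. In the latter group 3 libraries were below every MWA + PBS library, and the log2 fold change was -0.18 ± 0.10 (exact permutation p = 0.127). Fasl, its ligand on cytotoxic lymphocytes, was at 1.36, 0.862, 0.86, 1.61 and 1.2 FPKM and 0.751, 0.923, 0.99, 0.958 and 1.91 FPKM in the respective groups, with MWA + 2DG replicate 5 the highest (log2 fold change -0.06 ± 0.15). Tnfsf10 (TRAIL) was 2.95 to 9.21 FPKM in MWA + PBS nodes and 3.34 to 10.7 FPKM in MWA + 2DG nodes, with a coefficient of variation of 44.0% and 52.1%, the largest of any tested ligand (log2 fold change 0.06 ± 0.31). The 2 libraries with the highest Tnfsf10, Fasl and Tnf were in each case MWA + 2DG replicate 5 and MWA + PBS replicate 4, which also had the highest sums of 9 NK cell markers, 136 and 91.9 FPKM, the other 8 libraries being at 24.4 to 71.5 FPKM. Of the 9 NK cell markers 5 passed the filter. Gzma had the highest level of them, reaching 55.5 FPKM in MWA + PBS nodes and 87.6 FPKM in MWA + 2DG nodes, so the sums largely follow this gene. The part of NK cells in the values of Tnfsf10, Fasl and Tnf was not tested.

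Tnfrsf10b, the TRAIL receptor with a death domain in mice, had a log2 fold change of 0.03 ± 0.13, and Tnfrsf21 (DR6) had 0.03 ± 0.12. Tnfrsf22, Tnfrsf23 and Tnfrsf26 are neighbouring paralogs, the first 2 known as decoy TRAIL receptors, and reads may be split among them. Tnfrsf22 had 0.16 ± 0.14, Tnfrsf26 0.10 ± 0.09, and Tnfrsf23 was below the filter at 0.559 to 0.923 FPKM.

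The RANK and TWEAK axes held the second called gene. Tnfrsf12a (Fn14), the TWEAK receptor that is induced in injured and remodelling tissue, was at 2.13, 2.14, 2.3, 2.43 and 1.59 FPKM in MWA + PBS replicates 1 to 5 and 2.68, 1.89, 3.82, 2.59 and 4.23 FPKM in MWA + 2DG replicates 1 to 5. In the MWA + 2DG group 4 libraries were above every MWA + PBS library, and replicate 2 was below the MWA + PBS mean. The means were 2.12 ± 0.32 FPKM and 3.04 ± 0.959 FPKM (SD, n = 5 each), a 1.43-fold difference. The log2 fold change was 0.35 ± 0.16 (limma P = 0.0477, adjusted p = 0.995; exact permutation p = 0.0794). Without MWA + PBS replicates 1, 2, 3 or 5 the call was lost, with values of 0.35, 0.35, 0.37 and 0.28, and likewise without MWA + 2DG replicates 1, 3 or 5, with values of 0.37, 0.27 and 0.25. The value was 0.06 in replicates 1 and 2 alone and 0.54 in replicates 3 to 5 alone. Adipose markers summed highest in MWA + 2DG replicate 5 (97.2 FPKM) and MWA + 2DG replicate 2 (54.4 FPKM), the first of which had the highest Tnfrsf12a and the second the lowest of its group. The 8 epithelial markers, of which 2 passed the filter, summed highest in MWA + 2DG replicates 5, 3 and 1 (12.4, 6.5 and 6.42 FPKM), the 3 libraries with the highest Tnfrsf12a in the same order, and lowest in MWA + 2DG replicate 2 (2.24 FPKM). The order did not hold in MWA + PBS nodes, where the epithelial sums were 2.50 to 6.22 FPKM. Replicate 5 of that group had the lowest Tnfrsf12a of all 10 libraries (1.59 FPKM) with an epithelial sum of 5.47 FPKM. The part of these tissues in the result was not tested.

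Its ligand Tnfsf12 (TWEAK) was 3.37 to 5.4 FPKM in MWA + PBS nodes and 2.95 to 5.22 FPKM in MWA + 2DG nodes (log2 fold change 0.01 ± 0.14). Tnfsf11 (RANKL), which drives osteoclasts and lymph node organogenesis, was 5.51 to 10.9 FPKM in MWA + PBS nodes and 4.33 to 10.1 FPKM in MWA + 2DG nodes (log2 fold change 0.01 ± 0.21). Its receptor Tnfrsf11a (RANK) had 0.01 ± 0.13, and Tnfrsf11b (osteoprotegerin), the soluble decoy for RANKL, was below the filter at 0.245 to 0.936 FPKM.

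The receptors best known outside immune cells were near or below the filter. Ngfr, the low-affinity neurotrophin receptor that also marks lymph node stroma, had a log2 fold change of 0.10 ± 0.13 around a mean of 1.19 FPKM, and Tnfrsf19 (TROY) of -0.01 ± 0.07 around 1.02 FPKM. Eda2r, the receptor of the ectodysplasin isoform EDA-A2, was at 0.11 to 0.425 FPKM and was not tested. The 2 remaining untested ligands, Tnfsf15 (TL1A, ligand of DR3) and Tnfsf18 (GITR ligand), were at 0.203 to 0.542 FPKM and 0.0772 to 0.366 FPKM, and Tnfsf13os at 0.234 to 1.07 FPKM.

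**Figure D4:**
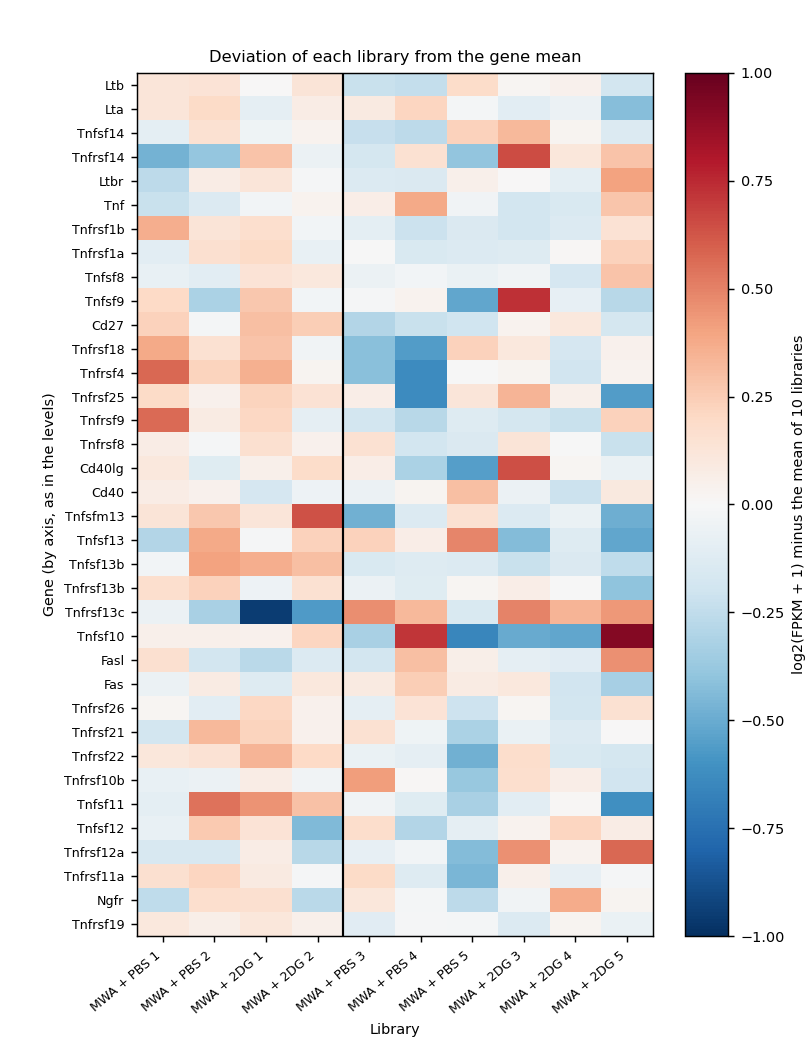
Deviation of each library from the mean of each of the 36 tested genes in log2(FPKM + 1), red above and blue below, with replicates 1 and 2 of both groups left of the black line. Tnfrsf13c is blue and Tnfsf13b mostly red left of the line, Tnfrsf14 is red in 4 of 5 MWA + 2DG libraries, and Tnfsf10 is darkest red in MWA + 2DG replicate 5 and MWA + PBS replicate 4.

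Ligands and receptors were also compared as pairs. In 13 of 25 known pairs the receptor was above its ligand in all 10 libraries, and in 7 the ligand was above its receptor in all 10. The receptor excess was 99.9-fold for Tnfrsf18 over Tnfsf18, 97.4-fold for Cd27 over Cd70 and 31.3-fold for Tnfrsf25 over Tnfsf15, as ratios of mean FPKM over all 10 libraries. It was 17.6-fold for Tnfrsf4 over Tnfsf4, 15.9-fold for Tnfrsf13b over Tnfsf13b, 15.6-fold for Tnfrsf13b over Tnfsf13 and 15.4-fold for Fas over Fasl. Tnfsf18, Cd70, Tnfsf15 and Tnfsf4 had means below 1 FPKM, so the ratios with these ligands rest on low values. The ligand was the more abundant partner for Ltb and Ltbr, Tnfsf8 and Tnfrsf8, Tnfsf11 and Tnfrsf11a, Tnfsf10 and Tnfrsf10b, and Tnfsf12 and Tnfrsf12a. Lta and Tnfrsf14 were close, with the receptor above the ligand in 3 of 10 libraries and a ratio of the means of 0.669 with PBS and 1.15 with 2DG. The ratio describes whole nodes, not single cells.

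**Figure D5:**
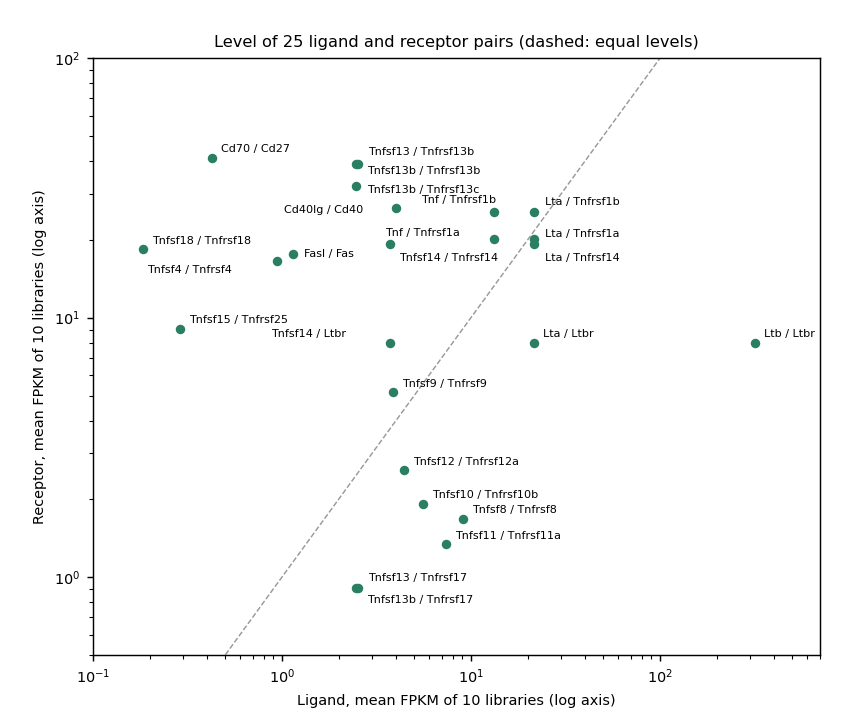
Mean FPKM over 10 libraries of the ligand (horizontal) and the receptor (vertical) of 25 pairs on log axes, each point a pair and the dashed line equal levels. Cd70 with Cd27 and Tnfsf18 with Tnfrsf18 lie farthest to the upper left (97.4-fold and 99.9-fold), and Ltb with Ltbr farthest to the right.

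Genes downstream of the receptors were described from 2 lists. Of 50 adaptors and NF-kB signalling genes, all tested, 35 had a positive log2 fold change, beside 52.6% of all tested genes. Their median was 0.05, beside 0.0074 for all tested genes. The rule called 0 of the 50, beside 0.952% (higher) and 1.87% (lower) of all tested genes. An unadjusted P below 0.05 was found for 1 of the 50, beside 4.25% of all tested genes. That gene, Ikbke, a kinase of the innate NF-kB and interferon pathways, had a log2 fold change of 0.24 ± 0.08 (SE; limma, adjusted p = 0.995; exact permutation p = 0.0238). Next by limma's P were Bid, a pro-apoptotic BCL2-family protein cleaved after death receptor signalling, at -0.18 (exact permutation p = 0.0714) and Nfkbid, a nuclear IkB protein, at 0.19 (exact permutation p = 0.151). Of 30 NF-kB response genes 24 were tested and 0 were called. A positive log2 fold change was found for 13 of the 24 (median 0.02), near the 52.6% of all tested genes (median 0.0074). The smallest limma P values were those of Cd83, a surface protein of activated B and dendritic cells, at -0.42 (exact permutation p = 0.0794), Bcl2 at 0.21 (exact permutation p = 0.127) and Ier3 at 0.23 (exact permutation p = 0.183). The summed response genes were 2662 to 3526 FPKM in replicates 1 and 2 and 2185 to 2657 FPKM in replicates 3 to 5, ranges that did not overlap, while the groups did (2185 to 3064 FPKM with PBS and 2235 to 3526 FPKM with 2DG, exact permutation p = 0.968). Of that sum 79.1% came from 6 genes that are also on the stromal, endothelial or dendritic cell lists, Ccl21a, Glycam1, Cxcl13, Ccl19, Madcam1 and Ccl22. Without them the replicate sets overlapped, at 484 to 557 FPKM in replicates 1 and 2 and 493 to 690 FPKM in replicates 3 to 5, as did the groups (520 to 591 FPKM with PBS and 484 to 690 FPKM with 2DG, exact permutation p = 0.865).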

How the data were processed

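Bulk RNA-seq was available for TDLNs of 10 mice, 5 per group. Reads were filtered by the authors in fastp and aligned by HISAT2, and FPKM per gene, from StringTie and ballgown, was deposited for each mouse. The submitters' processing notes name cutadapt 1.9, HISAT2 2.0.4, UMI-tools, StringTie 1.3.4d and the build mm9. Their annotation was not stated. The kit was stranded by dUTP, with molecular identifiers in the adapters. FPKM holds no counts (the smallest value above 0 was 1e-06), so depth and counting error are unknown. No 2 libraries had more than a share of 0.000178 of equal nonzero values.

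Symbols were matched for 33541 of 33643 identifiers, and values of 57 shared symbols were summed, leaving 33585 genes. The 13334 genes that averaged 1 FPKM or more across libraries were fitted with limma 3.58.1 in R 4.3.3 on log2(FPKM + 1), with no covariate. Fold changes on this scale understate the change of low genes. The study names limma, P below 0.05 and log(fold change) beyond 0.25. The pseudocount, filter, log base and reading of P as unadjusted were chosen here. In simulated data with independent normal noise, 188 of 200 genes changed by 1 on the log2 scale reached an adjusted p below 0.05. Of the unchanged genes among the 13334, 8 did so. The highest member value was 0.51, so the simulation does not measure detection of changes of that size or calls by the unadjusted rule. Single values and list sums were compared by exact permutation of the libraries (two-sided, smallest p 0.00794), in Python 3.11.15. Per-library values were given for tested members with P below 0.05, the 4 highest ligands and receptors, and a fixed list of 16 members. The members, the 20 gene lists and the alternatives were chosen with earlier results of these data known. Genes of a list were counted by the limma calls, and apart from the permutation of list sums no test of a list was run. Settings tried were other pseudocounts, filters, scalings, variance models, tests and thresholds, a replicate block, the replicate sets, and leaving out each library. Promoters came from RefSeq (GRCm38.p6).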

Additional observations from a re-analysis of the deposited data

Results flagged for a closer look

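Among 72 groups of 5 libraries tested for a single library standing apart by Dixon's test, 4 stood apart, and chance marks about 1 group in 20. Fasl in MWA + 2DG replicate 5 was at 1.91 FPKM, with the other 4 libraries of that group at 0.751 to 0.990 FPKM. Tnfrsf25, the receptor DR3, was at 5.38 FPKM in MWA + PBS replicate 4, with the others at 9.19 to 10.3 FPKM, and the lowest library of the MWA + 2DG group was replicate 5 at 5.71 FPKM. Tnfsf11 was at 10.9 FPKM in MWA + PBS replicate 2, with the others at 5.51 to 6.97 FPKM. Tnfsf13b was at 3.53 FPKM in the same MWA + PBS replicate 2, with the others at 2.07 to 2.36 FPKM. The causes were not tested.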

How the results depend on the processing

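With 5 mice a group and FPKM in place of counts, the calls rest on an unadjusted P. No member reached an adjusted p of 0.05 under any setting, the smallest being 0.768. The call of Tnfrsf14 held under every setting except its level relative to T cell markers (0.34). The number of members called higher, 2, was 1 (Tnfrsf14) with no filter, a filter of 5 FPKM, quantile normalization, median ratio scaling, exact permutation, the exact Wilcoxon test, the threshold read on the natural log scale, or replicates 1 and 2 alone, 3 of 42 tested (with Cd40lg) when libraries were rescaled to a common total, and 1 to 3 when a library was left out. The number called lower, 0, was 1 with no fold threshold (Lta), in replicates 3 to 5 alone (Tnfsf13) and in replicates 1 and 2 alone (Tnfrsf13c), and 0 to 2 when a library was left out. Comparisons within replicate sets, relative to cell markers and without shared genes of the NF-kB response list were added after the data had been seen.

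Replicate numbers were not taken to pair the mice, since same-numbered deviations correlated at 0.331, 0.501, 0.11, 0.0334 and 0.151, and 3 of 10 libraries correlated best with their own number. With the replicate number as a block 2 members were called higher, Tnfrsf14 and Cd40lg, and Tnfrsf12a was not. Rescaling each library to a common total moved the median log2 fold change of all genes from 0.0074 to 0.066.

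Of 445 alternative values for single members 374 kept direction and side of the threshold, 15 gained it, 16 lost it and 40 changed sign, all for members that were not called. Rescaling reversed Tnf (0.0385) and Tnfrsf9 (0.0362). Replicates 3 to 5 alone reversed Fasl (0.0298), Tnfrsf13c (0.215), Tnfrsf9 (0.137) and Tnfsf13b (-0.0679). Replicates 1 and 2 alone reversed Ltb (-0.0621), Tnf (0.180) and Tnfrsf4 (-0.202). Relative to T cell markers Ltb (-0.166), Ltbr (-0.00566), Tnfrsf4 (-0.0708), Tnfsf13b (-0.156) and Tnfsf8 (-0.0413) reversed, and relative to B cell markers Fasl (0.0411), Tnf (0.0774), Tnfrsf13b (0.00722), Tnfrsf13c (0.00216) and Tnfrsf9 (0.0770). Leaving out 1 library gave -0.182 to 0.00888 for Fasl, -0.0524 to 0.0546 for Ltb, -0.0951 to 0.0694 for Tnf, -0.234 to 0.128 for Tnfrsf13c, -0.0413 to 0.258 for Tnfrsf4, -0.0956 to 0.116 for Tnfrsf9 and -0.0718 to 0.120 for Tnfsf13b. The causes were not tested.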
